A study of Mus musculus with 6 samples.

Results

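Fibronectin, tenascin C and 8 further matrix glycoproteins and proteoglycans were examined in mouse ovarian surface epithelial (MOSE) cells, the layer that covers the ovary. Their 10 genes (Fn1, Tnc, Thbs1, Thbs2, Sparc, Postn, Spp1, Bgn, Lum and Dcn) were chosen by name from 25006 gene identifiers, with their counts in both cell lines already known. All of them matched an identifier, and 7 had enough counts to be tested. RNA sequencing covered 2 stable lines with 3 libraries each. MOSE-PAX8, here the PAX8 line, overexpresses the transcription factor PAX8, and MOSE-NEO is the reference line. Both grew under G418 at 0.05 mg/mL. The sources used here do not give the vector or promoter that carries PAX8, or whether a line is a clone or a pool. Pax8 had 0, 1 and 1 counts in the reference libraries, and 2570, 2973 and 3544 in those of the PAX8 line, as the labels say.

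Fibronectin is secreted as a dimer that cells stretch into fibrils through integrins, and other matrix proteins settle on these fibrils. Matricellular proteins such as tenascin C, the thrombospondins, SPARC, periostin and osteopontin give the matrix little strength, and instead bind receptors, growth factors and collagen. Biglycan, decorin and lumican are small leucine-rich proteoglycans that coat collagen fibrils. The ovarian surface epithelium has mesothelial character and is repaired after each ovulation.

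Library totals ran from 23623762 to 36367825 counts. Levels are in CPM, counts per unit of sequencing depth after TMM scaling for composition, given as mean ± SD of 3 libraries. No label states that replicates are separate cultures; errors and p-values reflect library-to-library spread alone, possibly technical. The lincRNA share of counts was 0.317% in MOSE-NEO 1 and 0.33% in MOSE-PAX8 2, and between 0.146% and 0.195% elsewhere. Over all tested genes 17.9% were called higher and 16.1% lower in the PAX8 line (edgeR, adjusted p under 0.05). These shares are the background for the marker counts and for the lists of related genes below. Markers of the ovarian surface (7 of 10 called lower, 0 higher) summed to 12675 to 14003 CPM in the reference line, against 7540.5 to 9138 in the PAX8 line. Among them Krt8 (68 and 32 counts) and Krt19 (22 and 41 counts) were scarce. The Krt8 call, to lower, was lost under 6 of 14 alternative analyses (edgeR or DESeq2 adjusted p from 0.0512 to 0.106). Stromal fibroblast markers (3 of 6 tested called lower, 0 higher), mostly collagens, summed to 29334 to 34972 and 15177 to 16983 CPM. Pdgfra had 10 and 6 counts. The largest change of this list was in the surface marker gene Thy1, from 4524 to 285 counts (log2 -4.23 ± 0.27 SE). Leukocyte markers reached 17.1 and 10.3 CPM at most, endothelial markers 1.03 and 0.524, and granulosa and theca markers 541 and 414. Most of the last sum was the single gene Star, at 475.7 and 370.7 CPM on average. Adgre1, Cdh5, Fshr and Cyp19a1 were at 0 in every library, and most of the leukocyte and granulosa lists was too scarce to test. Of 3 tested leukocyte markers 1 was called higher (Ptprc, 1 and 196 counts) and 1 lower (Csf1r, 921 and 428 counts). Of 3 tested granulosa and theca markers 1 was called higher (Foxl2, 1 and 182 counts) and 2 lower (Inha, log2 -0.39 ± 0.09, and Star, -0.36 ± 0.1 SE). The Star call was lost without any 1 library other than MOSE-NEO replicate 1, at edgeR adjusted p from 0.0633 to 0.0896. The part of such markers in the differences described here was not tested. In bulk RNA, fewer cells of a type and less RNA per cell cannot be told apart.

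RefSeq promoter windows (build GRCm38.p6, 250 bases before to 50 after a start) were held for 6 of the genes, 9 windows in all. The bases before the start are shown for Tnc and Spp1, which differed most between the lines, and for Bgn, whose level overlapped. Capitals mark matches on either strand to a TATA box (TATAAA) or an SP1 site (GGGCGG).

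Tnc, chr4:64047016-64047265, minus strand: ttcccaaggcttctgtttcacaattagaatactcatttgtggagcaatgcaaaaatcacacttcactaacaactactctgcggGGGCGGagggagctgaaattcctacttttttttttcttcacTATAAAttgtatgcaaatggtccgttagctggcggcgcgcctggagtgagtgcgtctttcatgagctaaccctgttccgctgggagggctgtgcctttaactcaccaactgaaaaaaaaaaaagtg

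Spp1, chr5:104434861-104435110, plus strand: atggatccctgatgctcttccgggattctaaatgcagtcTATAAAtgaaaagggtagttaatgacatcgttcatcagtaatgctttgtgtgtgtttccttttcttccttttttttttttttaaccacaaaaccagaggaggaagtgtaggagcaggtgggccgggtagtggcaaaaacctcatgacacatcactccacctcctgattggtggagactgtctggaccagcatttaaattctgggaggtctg

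Bgn, chrX:73483351-73483600, plus strand: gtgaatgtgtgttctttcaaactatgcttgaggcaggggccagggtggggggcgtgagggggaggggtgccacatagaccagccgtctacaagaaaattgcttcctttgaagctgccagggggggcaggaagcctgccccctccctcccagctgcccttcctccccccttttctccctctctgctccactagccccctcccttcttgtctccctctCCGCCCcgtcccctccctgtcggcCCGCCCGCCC

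Also searched were the TEAD site GGAATG, the AP-1 site TGANTCA, the PAX core GCGTGAC and the CArG box of serum response factor. Among 32851 windows of this length, 13.6% held the TATA box, 35.7% the SP1 site, 14.7% the TEAD site, 7.81% the AP-1 site, 2.09% the PAX core and 1.63% a CArG box. The shown Tnc stretch has 1 TATA match, at position -126 from the start, and 1 SP1 match. Spp1 has 1 TATA match, at -211, and Bgn has 3 SP1 matches, 2 of which overlap each other. A further Tnc start, at position 64046936, had the single PAX core match among the 9 windows, read on the strand opposite to the gene; it lies just inside the transcript and is in capitals here.

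Tnc, chr4:64046902-64046928, minus strand: cctgcctactGTCACGCgtctctcccg

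Such a match describes letters, and binding was not measured here.

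Fn1 encodes fibronectin (chromosome 1, 71585520 to 71653200, minus strand, mm10). Its level was 522, 608 and 468 CPM in reference libraries 1 to 3, and 1889, 2607 and 2194 CPM in PAX8 libraries 1 to 3. Every PAX8 library lay above every reference library. The mean was 532 ± 70.6 against 2230.1 ± 361 CPM, 4.19-fold higher in the PAX8 line (log2 2.07 ± 0.15 SE). By level per kilobase, Fn1 stood at percentile 91.9 of tested genes in the reference line and 99.1 in the other. The antisense gene Apol7d overlaps the start of Fn1 but had only 148 counts over all libraries.

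Tnc encodes tenascin C, a hexameric glycoprotein that modulates adhesion to fibronectin and is best known from embryonic, wounded and tumour tissue (chromosome 4, 63959785 to 64047015, minus strand). It had 121, 108 and 74 counts in the reference libraries, or 3.84, 4.7 and 2.46 CPM. The PAX8 libraries held 16808, 24667 and 23255 counts, or 459.6, 775 and 717 CPM. Tenascin C was thus a scarce transcript in every reference library and an abundant one in every PAX8 library. The difference was 179-fold (log2 7.49 ± 0.3 SE), the largest among the tested members, and the percentile by level per kilobase was 12.2 and then 96.8. Per kilobase, Fn1 exceeded Tnc 86.1 to 127 times in the reference libraries, but only 2.04 to 2.73 times in the PAX8 libraries.

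Thbs1 encodes thrombospondin 1, which activates latent TGF-beta and binds CD36 and CD47 (chromosome 2, 118111876 to 118127133, plus strand). Levels were 227, 208 and 197 CPM in the reference libraries and 473, 456 and 492 CPM in the PAX8 libraries. The lines did not overlap, and the PAX8 libraries lay close together (coefficient of variation 3.71%). Thbs1 was 2.25-fold higher in the PAX8 line (log2 1.17 ± 0.08 SE). Its paralog Thbs2 (chromosome 17, 14665500 to 14694235, minus strand), an inhibitor of angiogenesis, had 0 counts in all 6 libraries. A count of 0 allows up to 3 counts in a library, or 0.0825 to 0.127 CPM, for counting error only.

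Spp1 encodes osteopontin, a secreted phosphoprotein that binds integrins and CD44 (chromosome 5, 104435118 to 104441050, plus strand). It had 21, 14 and 19 counts in the reference libraries and 338, 297 and 619 in the PAX8 libraries. In CPM these were 0.667, 0.609 and 0.631, then 9.24, 9.33 and 19.1. No libraries overlapped, and MOSE-PAX8 3 stood well above the other PAX8 libraries. The fitted difference was 19.6-fold (log2 4.29 ± 0.35 SE), and the ratio of summed counts was 19.5 (exact 95% counting interval 14.8 to 26.1). Even in the PAX8 line osteopontin was a middling transcript, at percentile 52.3 per kilobase.

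Sparc encodes SPARC, or osteonectin, a collagen-binding protein of remodelling tissue (chromosome 11, 55394500 to 55423183, minus strand). Reference libraries held 10909, 13678 and 14809 CPM, and PAX8 libraries 8615, 7688 and 8119 CPM. All PAX8 libraries lay below the lowest reference library, MOSE-NEO 1. The level was 1.61-fold lower in the PAX8 line (log2 -0.69 ± 0.13 SE), the only tested member whose libraries were all lower there. Sparc alone took 1.07% to 1.45% of reference counts and 0.799% to 0.866% of PAX8 counts. Per kilobase of annotated exon it ranked 1 among all genes in each library. That rank covers counted reads only: Gapdh, which has many pseudogene copies, had just 2.65 to 9.5 CPM.

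Postn encodes periostin, a fibroblast matrix protein that binds tenascin C and fibronectin (chromosome 3, 54361109 to 54391037, plus strand). It was nearly silent, with 2, 2 and 2 counts in the reference libraries, then 6, 5 and 0. The ratio of summed counts was 1.54 (0.521 to 5.07), so a difference was not detectable at this depth.

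Of the proteoglycans, decorin and biglycan were abundant in both lines and lumican was nearly absent. Dcn, a decorator of collagen fibrils (chromosome 10, 97479609 to 97518143, plus strand), had 1503, 1461 and 1751 CPM in the reference libraries and 1662, 1162 and 1435 CPM in the PAX8 libraries. These overlapped, with a log2 difference of -0.15 (95% interval -0.42 to 0.13). Bgn, which encodes biglycan (chromosome X, 73483602 to 73495933, plus strand), had 532, 960.2 and 563 CPM in the reference libraries, then 655, 662 and 542 CPM. MOSE-NEO 2 stood above the other 5 libraries, and the lines overlapped. The log2 difference was -0.15 (interval -0.56 to 0.27), and 0.17 without MOSE-NEO replicate 2. Lum, 47.0 kb from Dcn (chromosome 10, 97565128 to 97572703, plus strand), had 2, 0 and 1 counts in the reference libraries, then 6, 1 and 5. The ratio was 3.36 (0.906 to 18.5), again not a detectable difference. Neighbouring Dcn and Lum therefore had very unlike levels in the same cells.

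**Figure D1:**
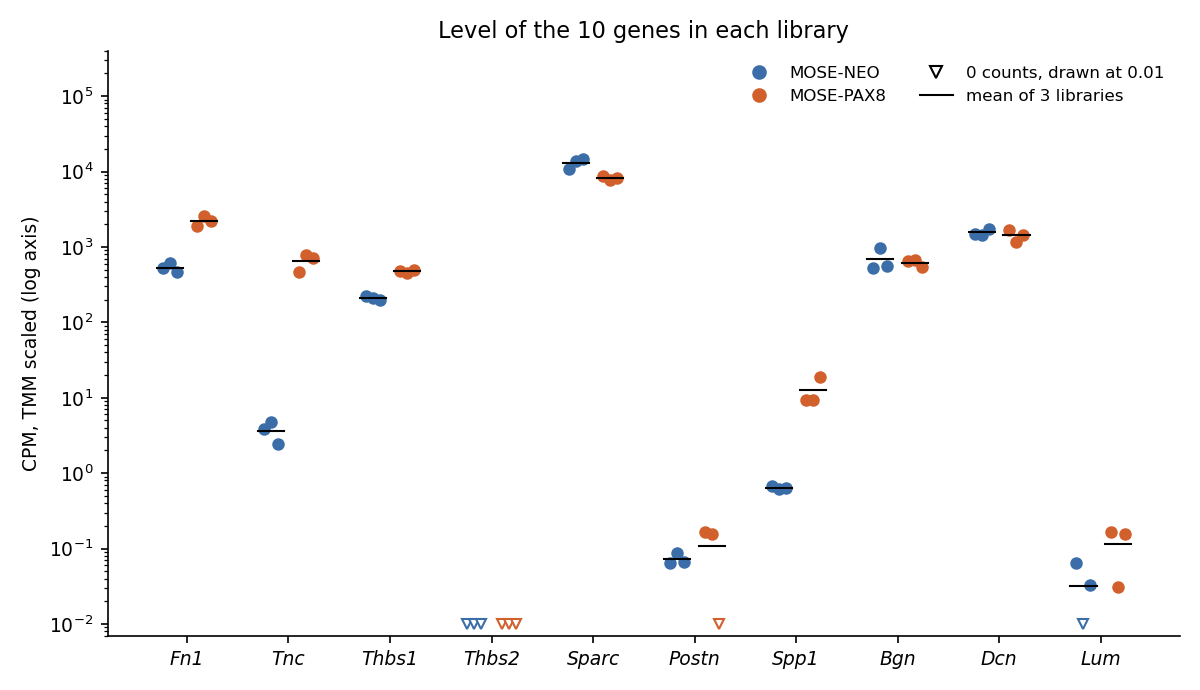
Level of each of the 10 genes in each library, in TMM-scaled CPM on a log axis, with MOSE-NEO in blue, MOSE-PAX8 in orange, a bar at the mean of 3 libraries and open triangles for 0 counts. Tnc lay between 2.46 and 4.7 CPM in the reference line and between 459.6 and 775 CPM in the PAX8 line, while Bgn and Dcn overlapped.

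In the fit over all genes (edgeR's quasi-likelihood test, called at a Benjamini-Hochberg adjusted p under 0.05), 4 of the 7 tested members were called higher in the PAX8 line (Fn1, Tnc, Thbs1, Spp1), 1 lower (Sparc) and 2 were not called. Of 12313 tested genes 33.9% were called, 17.9% higher and 16.1% lower. The members were chosen with this comparison known, so nothing is read from their count. The same holds for their median log2 fold change, which was 1.17, against 0.01 over all tested genes. Tested against a fold of 1.5, Sparc was not called (edgeR adjusted p = 0.582).

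**Figure D2:**
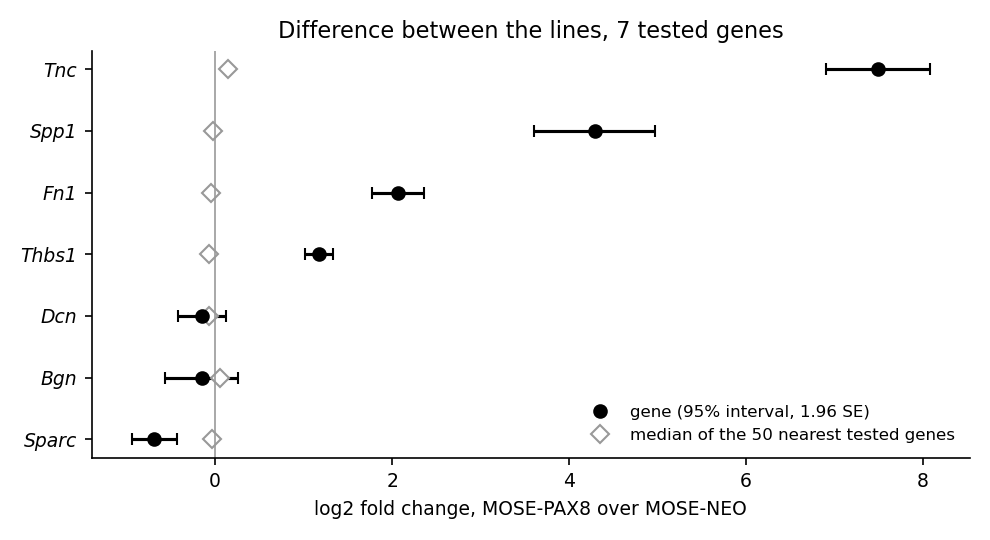
Log2 fold change of the PAX8 line over the reference line for the tested genes, with 95% intervals, and the median of the 50 nearest tested genes on the chromosome (open diamonds). Genes ran from -0.69 (Sparc) to 7.49 (Tnc), and the medians around them from -0.07 to 0.14.

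Genes can be ranked against each other only per length, as CPM per kilobase of exon. In the reference line the order was Sparc (3467 ± 529.7), Dcn (269 ± 26.8), Bgn (112 ± 39.1), Fn1 (45.6 ± 6.04), Thbs1 (34.6 ± 2.53), Tnc (0.472 ± 0.145) and Spp1 (0.386 ± 0.0179), with Tnc and Spp1 overlapping. In the PAX8 line it was Sparc (2149 ± 122), Dcn (243 ± 42.9), Fn1 (191 ± 30.9), Bgn (102 ± 11), Tnc (83.7 ± 21.6), Thbs1 (78 ± 2.89) and Spp1 (7.62 ± 3.43). By this measure Fn1 and Bgn exchanged places. Dcn and Fn1 overlapped in the PAX8 line, as did Bgn with Tnc, and Tnc with Thbs1. The length counts every annotated exon base of a gene (Fn1 11685, Tnc 7772, Bgn 6099 and Dcn 5838 bases). Where cells express a shorter transcript, the order, the exchange and these overlaps could differ.

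The 10 genes together took 1.34% to 1.74% of reference counts and 1.38% to 1.39% of PAX8 counts. Without Sparc these shares were 0.274% to 0.316% and 0.518% to 0.589%. Of the summed level per kilobase, Sparc made up 88.1% ± 1.17 and then 75.3% ± 1.25 (SD, n = 3). Fibronectin took 1.18% ± 0.232 and then 6.72% ± 1.35, tenascin C 0.0123% ± 0.0044 and then 2.96% ± 0.861, and decorin 6.91% ± 0.841 and then 8.49% ± 1.17. Shares of the summed level per kilobase depend on the same exon lengths. Transcripts, not secreted proteins, were measured.

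**Figure D3:**
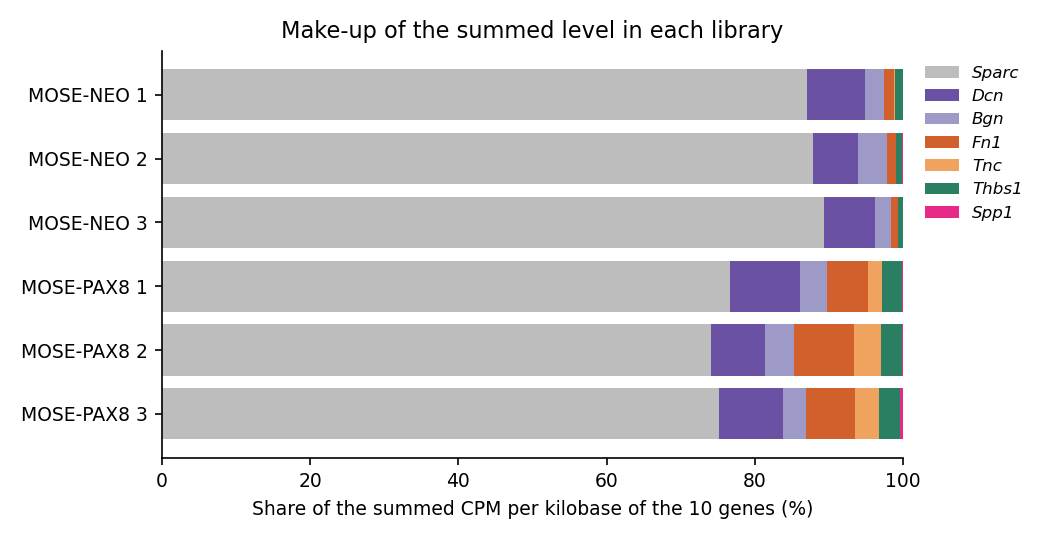
Share of each gene in the summed CPM per kilobase of the 10 genes, in percent, 1 bar per library. Sparc filled 88.1% on average in the reference line and 75.3% in the PAX8 line.

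Members were also set beside their nearest tested neighbours on the chromosome. The nearest tested genes on either side of Tnc were Tmem268, 373.4 kb away, and Trim32, 1558 kb away. Their log2 differences were -0.09 ± 0.16 and -0.02 ± 0.1 (SE), and 0 of 18 tested genes within 2 Mb reached the Tnc value. Atic, 5.89 kb from Fn1, was at -0.05 ± 0.08, Pkd2 beside Spp1 at 0.13 ± 0.1, and Atox1 beside Sparc at -0.1 ± 0.09. None of these 5 neighbours was called. Called neighbours were Fsip1 beside Thbs1, Btg1 at 856.8 kb from Dcn (log2 0.77 ± 0.09, edgeR adjusted p = 0.000351) and Haus7 beside Bgn (0.38 ± 0.13, 0.0452). The Haus7 call was lost under 8 of 15 alternatives, among them leaving out MOSE-NEO replicate 1 (0.106) or 3 (0.125) and MOSE-PAX8 replicate 1 (0.067), 2 (0.114) or 3 (0.119).

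Some genes within 2 Mb differed more than the member; they were picked out after their values were seen. Beside Fn1 this was 1 of 11, the IGF-binding protein gene Igfbp2 (log2 5.82). Beside Spp1 it was 3 of 17, the guanylate-binding protein genes Gbp8 (6.6), Gbp9 (5.72) and Gbp4 (5.25), paralogs whose annotated spans overlap, so that reads may be split among them. In the reference line these had only 1, 11 and 2 counts. Beside Thbs1 it was 3 of 41, namely Gchfr (2.02), Fsip1 (1.79) and Tyro3 (1.27). Fsip1 was scarce (0.107 and 0.379 CPM) and lost its call under 8 of 14 alternatives, including without MOSE-NEO replicate 2 (0.0643) or 3 (0.0863) and without MOSE-PAX8 replicate 1 (0.0501), 2 (0.0572) or 3 (0.0881; edgeR adjusted p). Below Sparc lay 2 of 22, Gm2a (-0.96) and P4ha2 (-0.95), a collagen prolyl hydroxylase gene. Bgn and Dcn, which were not called themselves, had 43 and 9 tested neighbours. Those of Dcn ranged from -0.43 to 0.77. Beside Bgn the cell adhesion gene L1cam was called higher, with 0 counts in the reference line and 290 in the PAX8 line; its fitted log2 value of 9.49, the highest near any tested member, depends on the prior count and is no bound.

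**Figure D4:**
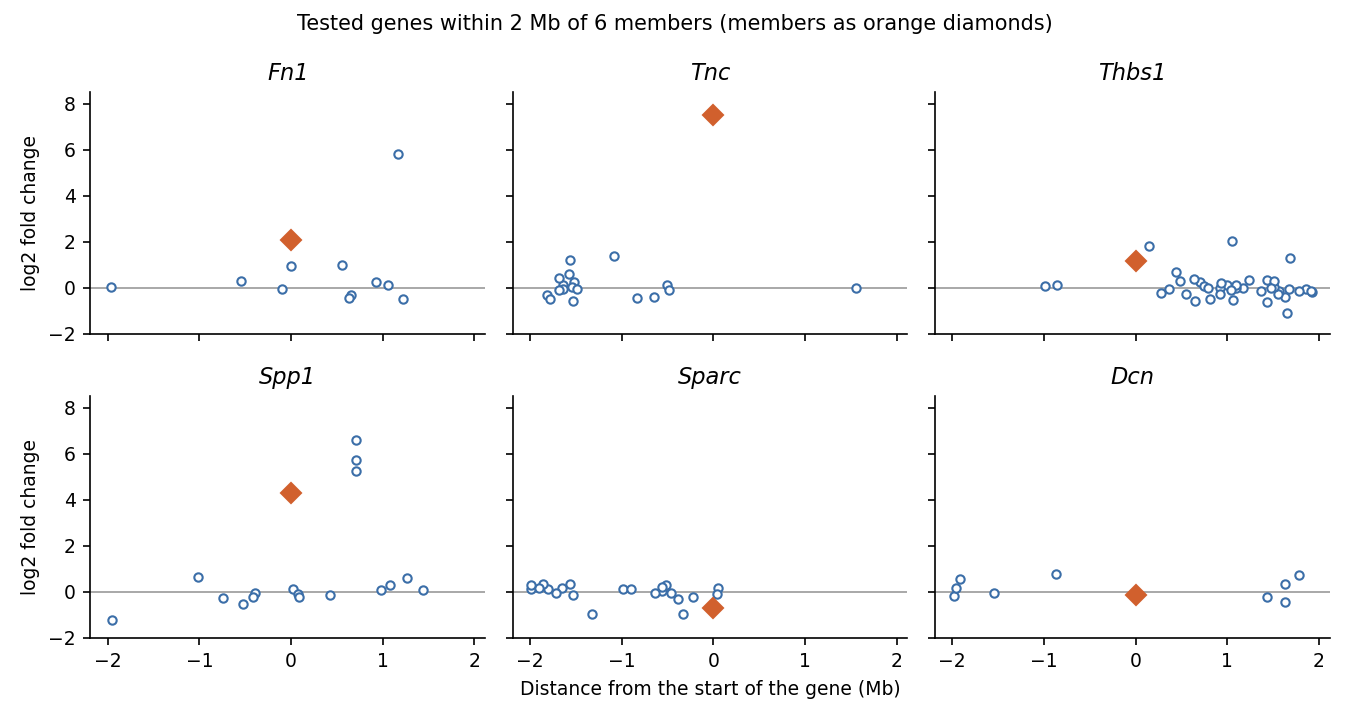
Log2 fold change of tested genes within 2 Mb of 6 members (open circles), by distance from the member's start in Mb, with the member as an orange diamond. Bgn is not drawn. Most of the drawn neighbours lie near 0, and Igfbp2 (5.82) and the Gbp genes (5.25 to 6.6) stand apart.

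The genes most like each member over the 6 libraries were found by the Euclidean distance of centred log2 CPM, after adding 0.5 CPM. Pax8 (0.67) and Sprr2g (0.75) lay nearest to Tnc, and Cfap161 (0.32) and Fjx1 (0.34) to Fn1. Stk38l (0.11) and Hist3h2a (0.13) lay nearest to Thbs1, and Map3k7cl (0.29) and Rragd (0.44) to Spp1. Because of the added value, a scarce gene such as Cfap161 (0.108 and 2.26 CPM) can lie near an abundant one. That value also shrinks the difference of genes near 0 in the reference line. Pax8 (0.0256 and 91 CPM, fitted log2 11.68) and Sprr2g (0.029 and 62.6 CPM, 11.14) differed more than Tnc (7.49). Their nearness to Tnc therefore does not show a like fold change.

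Integrins are the main receptors of these proteins. Of 6 tested among 10 listed subunits, 1 was called higher and 1 lower (median log2 0.15). That was 33.3% called, against 33.9% of all tested genes. This and the further lists were written with earlier results known, so nothing is read from their shares. Itgb1, the common beta subunit, rose from 908 ± 20.3 to 1174 ± 129.5 CPM (log2 0.37 ± 0.1, edgeR adjusted p = 0.021). Its call was lost without MOSE-NEO replicate 2 (0.0694), MOSE-PAX8 replicate 1 (0.0736) or MOSE-PAX8 replicate 3 (0.0949). Itgav, the alpha subunit of osteopontin receptors, fell from 847 ± 104 to 636 ± 44 CPM (log2 -0.41 ± 0.11, edgeR adjusted p = 0.018). That call was lost without MOSE-PAX8 replicate 3 (0.0825), with local medians removed (0.0706) and without both lincRNA-rich libraries (0.0555). Itga5, of the classical fibronectin receptor, had 40.2 ± 3.01 and 44.9 ± 3.01 CPM and was not called. Itga4 and Itga9, of other osteopontin and tenascin C receptors, had at most 5 counts in a line.

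Of 9 tested among 11 other receptors, 2 were called higher and 4 lower (66.7% against 33.9% of all tested genes, median log2 -0.27). Cd44, a receptor of osteopontin and hyaluronan, rose from 13 to 2103 counts (log2 7.06 ± 0.43, edgeR adjusted p = 1.19e-05), and the collagen receptor gene Ddr2 from 6 to 103. Its epithelial relative Ddr1 fell 1.55-fold, from 1144 ± 108 to 740.4 ± 34.5 CPM. The syndecan genes Sdc2 and Sdc4, encoding heparan sulphate co-receptors of fibronectin, fell 1.78-fold and 1.35-fold. Cd47, a thrombospondin 1 receptor gene, fell 1.21-fold (log2 -0.27 ± 0.07, edgeR adjusted p = 0.021). This call was not followed through the alternatives.

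Close relatives of the members were mostly silent or were not called. Of 6 tenascin and thrombospondin relatives 2 were tested, Tnxb (log2 -0.19 ± 0.23) and Thbs3 (0.21 ± 0.38), and 0 were called by edgeR, DESeq2 or limma-voom, with 0 at an unadjusted edgeR p under 0.05. Among 12 relatives of SPARC, periostin and osteopontin, 6 had 0 counts throughout and 3 were tested. Fstl1, encoding a follistatin-like protein of the SPARC family, rose from 136 ± 24.8 to 465 ± 58.7 CPM (log2 1.77 ± 0.15, edgeR adjusted p = 5.58e-05), the opposite direction to Sparc. Tgfbi, the periostin paralog, had 0 counts and then 20 in the PAX8 line.

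CCN proteins form another matricellular family, of which 3 of 6 genes were tested. Ccn1 rose 2.15-fold, from 250.5 ± 25.8 to 538 ± 33.8 CPM. The 50 nearest tested genes around Ccn1 had a median log2 fold change of 0.46, and with it removed the Ccn1 value went from 1.1 to 0.64 and was still called (edgeR adjusted p = 0.00171). Ccn4 fell 1.65-fold, from 338 ± 15.8 to 205 ± 9.88 CPM, and Ccn2 was not called at 1840.0 ± 549 and 1908 ± 358 CPM.

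Of 6 tested among 12 other small leucine-rich proteoglycans, 1 was called higher and 2 lower (median log2 -0.8). That was 50% called, against 33.9% of all tested genes. Ogn (osteoglycin) rose from 5.53 ± 0.606 to 15.8 ± 1.27 CPM. Podn (podocan) fell from 62 to 19 counts and Ecm2 from 74 to 37. The Ecm2 call (edgeR adjusted p = 0.0428) was lost under 9 of 14 alternatives, at adjusted p from 0.0538 to 0.163. These included leaving out MOSE-NEO replicate 1 (0.163) or 3 (0.0556), MOSE-PAX8 replicate 1 (0.126), 2 (0.056) or 3 (0.121), and the replicate block (0.0881).

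Among 7 fibronectin fibril partners, 6 were tested, with 2 called higher and 1 lower (50% against 33.9% of all tested genes, median log2 0.1). Ltbp1, which ties latent TGF-beta to the matrix, rose from 23 to 301 counts (log2 3.47 ± 0.43, or 4.17 without MOSE-NEO replicate 3), and Fbn1, encoding fibrillin 1, from 2.16 ± 0.352 to 4.3 ± 0.436 CPM. Emilin1, encoding an elastic fibre glycoprotein, fell from 106 to 47 counts. Tgm2, the crosslinking transglutaminase gene, was not called at 50.6 ± 41.2 and 51.2 ± 14.3 CPM.

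Enzymes that build the glycosaminoglycan chains of such proteoglycans were called in both directions. Of 18 tested, 5 were called higher and 6 lower (61.1% against 33.9% of all tested genes, median log2 0.07). Xylt1, which starts a chain, rose 2.37-fold and the epimerase-like gene Dsel 2.51-fold, while the sulphotransferase gene Chst2 rose from 4 to 92 counts (log2 4.15 ± 0.63, 5.51 without MOSE-NEO replicate 2 and 3.56 without MOSE-NEO replicate 3). Csgalnact1, which commits a chain to chondroitin, fell 2.27-fold, the keratan sulphate enzyme gene B3gnt7 2.28-fold and the uronyl sulphotransferase gene Ust 1.88-fold.

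Of 21 tested among 22 regulators described for these genes, 7 were called higher and 1 lower (median log2 0.09). That was 38.1% called, against 33.9% of all tested genes. Tgfb2, a TGF-beta ligand gene, rose from 27.6 ± 6.07 to 114 ± 22 CPM, the immediate early gene Egr1 from 6.77 ± 1.3 to 56.4 ± 12.5, and Ets1 from 74.6 ± 3.13 to 115 ± 6.73. Tead4 fell (log2 -0.62 ± 0.13), a call lost without both lincRNA-rich libraries (edgeR adjusted p = 0.0635). Its paralogs Tead2 (0.54 ± 0.12) and Tead3 (0.61 ± 0.08) were called higher, as was Srf (0.5 ± 0.09). These calls were not followed through the alternatives. Tead1, the most abundant of the TEAD genes (516 ± 68.3 and 486 ± 14.5 CPM), was not called. Yap1, at 259 ± 15.5 and 259.9 ± 22.8 CPM, was not called, and Prrx1, a mesenchymal homeobox gene, was at 0 throughout. Over the 9 lists, 20 of 74 tested genes were called higher and 16 lower, with a median log2 fold change of 0.04. In all 48.6% were called, against 33.9% of all tested genes. The lists were written with earlier results of these data known, so nothing is read from this share.

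**Figure D5:**
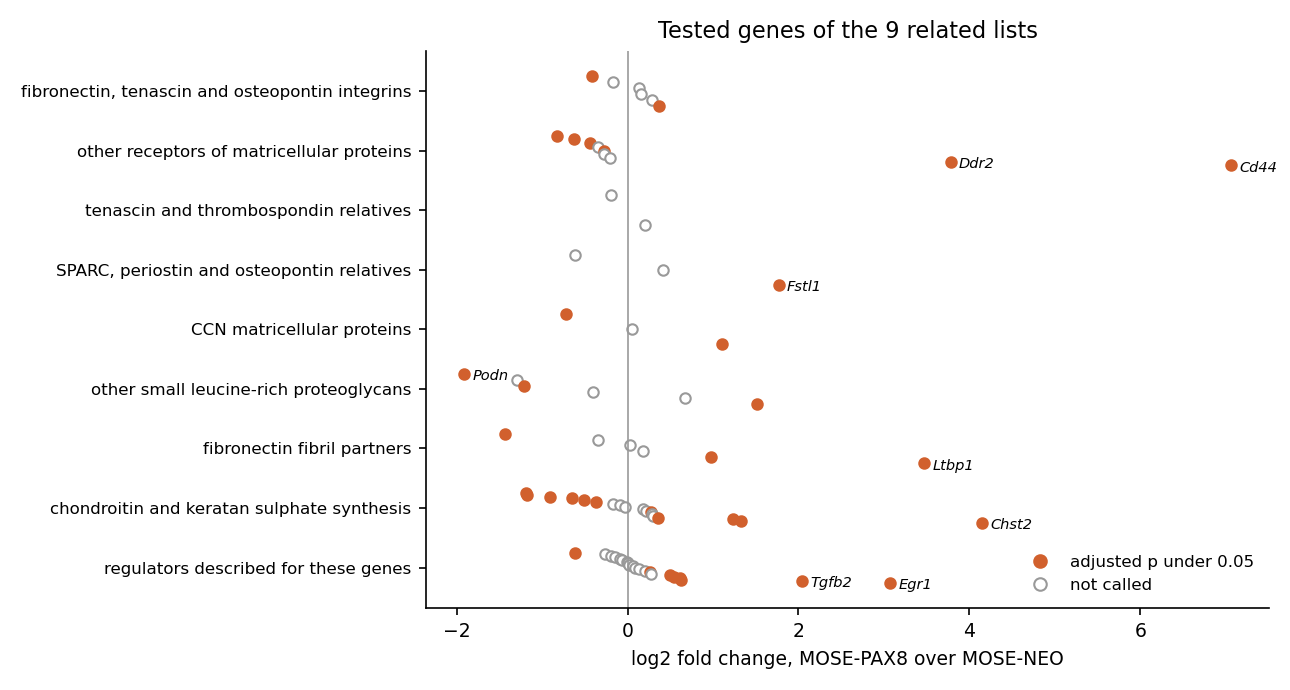
Log2 fold change of the PAX8 line over the reference line for each tested gene of the 9 related lists, filled where the adjusted p was under 0.05 and open otherwise. Cd44 (7.06) and Chst2 (4.15) lie farthest to the right and Podn (-1.91) farthest to the left.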

How the data were processed

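RNA of 6 libraries was sequenced, and the authors deposited raw counts for each gene, with 25006 Ensembl identifiers. The submitters' processing notes list cutadapt 1.13, STAR, HTSeq 0.6.1p1, DESeq2 and mm10. Annotation, strand setting and treatment of multiply aligned reads were not given in the sources used here. Counts of overlapping and near-identical genes are therefore uncertain. Symbols, coordinates and exon lengths came from GENCODE M21, which matched 24942 identifiers.

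All genes were compared between the lines with edgeR 4.0.16 in R 4.3.3 (quasi-likelihood test, TMM, filterByExpr, Benjamini-Hochberg adjustment, threshold 0.05), which was also tested on simulated counts. SEs were worked back from each estimate and its statistic. The members and lists were chosen with earlier results of these data known. Named were the members, up to 3 called genes per direction and list with the largest change (or the 2 most abundant tested genes where none was called), the nearest tested neighbours and the 2 most similar genes of members called with at least a 2-fold difference; other list genes are examples. The 16 alternatives were DESeq2 1.42.0, limma-voom (limma 3.58.1), other scalings and count filters, a replicate block, left-out libraries, removed local medians and a threshold of 1.5-fold. For single genes other than the members, the 1.5-fold threshold was not followed.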

Additional observations from a re-analysis of the deposited data

How the results depend on the processing

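Over 16 alternatives the log2 fold change ranged from 1.92 to 2.17 for Fn1, 7.26 to 7.68 for Tnc, 1.13 to 1.25 for Thbs1, 3.86 to 4.49 for Spp1, -0.82 to -0.59 for Sparc and -0.28 to -0.02 for Dcn. Fn1, Tnc, Thbs1 and Spp1 were called in all of them and Sparc in 15. Bgn was called in none and ranged from -0.35 without both lincRNA-rich libraries to 0.17 without MOSE-NEO replicate 2. Against a fold of 1.5, which asks for a larger difference, 1070 genes were called in all, 0 members lower, and 11 related genes higher and 4 lower. With 1 library left out, 2859 to 3908 genes were called, 16 to 20 related genes higher and 12 to 16 lower. Deviations of same-numbered libraries correlated at -0.488, 0.0645 and 0.478, and those of unlike-numbered libraries at -0.714 to 0.671. The highest value was for MOSE-NEO 1 with MOSE-PAX8 2, the lincRNA-rich libraries. With 3 libraries per line, these values cannot settle whether the numbers pair the libraries. With the replicate block 3933 genes were called, 4 members higher and 1 lower. Of 65 other named genes, 8 lost a call under at least 1 alternative other than the 1.5-fold threshold. That threshold was followed gene by gene for members only, so per-gene counts of lost calls elsewhere leave it out. Depth limits Thbs2, Postn and Lum.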
